A study of Mus musculus with 12 samples.

Results

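The genes described here are 7 enzymes that lengthen or desaturate long-chain fatty acids: the elongases Elovl1, Elovl2, Elovl3 and Elovl5 and the desaturases Fads1, Fads2 and Scd2. They were taken by name from a table of 20143 genes, all 7 had a row, and all 7 passed the minimum mean of 10 CPM (each gene's share of the library's counts, scaled so that a library sums to 1000000) that 9186 genes passed. The study measured liver RNA of 12 mice, 1 library per mouse, on CDAA-HFD, a high-fat diet that lacks choline and gives its protein as amino acids, used to bring on steatohepatitis. The groups were 6 Hsd17b13-KO mice, which lack the hepatocyte lipid droplet enzyme HSD17B13, and 6 wild-type (WT) mice. All were 8 to 10 weeks old when the diet began and ate it for 12 weeks, so neither group shows the liver of a mouse on ordinary food. The labels give no strain, sex or litter and do not say how the allele was made. p-values therefore measure the spread between these mice.

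Fatty acid elongation runs on the endoplasmic reticulum as a cycle of condensation, reduction, dehydration and a further reduction, and the ELOVL enzyme of the first step sets which chains are lengthened. Desaturases insert double bonds with electrons from cytochrome b5. FADS2 (delta-6 desaturase) opens the route from dietary linoleic and alpha-linolenic acid, ELOVL5 lengthens the product, FADS1 (delta-5 desaturase) makes arachidonic and eicosapentaenoic acid, and ELOVL2 carries chains on towards docosahexaenoic acid (DHA). ELOVL1 and ELOVL3 lengthen saturated and monounsaturated chains, and SCD2 (delta-9 desaturase) makes monounsaturated ones. The liver is the main site of the polyunsaturated route in the body.

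Hsd17b13 stood at 1.18 ± 0.181 CPM in KO and 347 ± 36.0 CPM in WT livers (SD, n = 6 each), and every library followed its genotype label. Summed hepatocyte markers lay between 53656 and 73428 CPM in every liver. The Y-linked gene Ddx3y was at 42.0 CPM or more in each liver and Xist at 1.36 CPM or less, which is the pattern of male mice. By the step between low values, 1 CPM stood for 46.3 to 76.6 counts in KO and 52.6 to 77.9 counts in WT libraries. KO livers 1 and 3 had been set apart from the other KO livers in earlier processing of these data, so values without them are given for Scd2.

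The windows before the start sites of Elovl5 and Elovl2 are printed because these elongases act in turn on the same chains and the windows hold different motifs. Windows of 250 bases before the RefSeq start (GRCm38.p6) were found for 4 of the 7 genes, Elovl1, Elovl2, Elovl5 and Fads2. Capitals mark matches on either strand to a CCAAT box (CCAAT), a GC box (GGGCGG) or an E box (CACGTG).
Elovl5, chr9:77917115-77917364, plus strand: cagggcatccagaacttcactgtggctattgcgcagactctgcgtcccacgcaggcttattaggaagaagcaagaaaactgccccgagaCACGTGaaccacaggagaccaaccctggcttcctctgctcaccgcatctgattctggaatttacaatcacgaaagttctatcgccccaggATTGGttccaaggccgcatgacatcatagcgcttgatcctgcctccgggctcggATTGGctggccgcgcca
Elovl2, chr13:41220404-41220653, minus strand: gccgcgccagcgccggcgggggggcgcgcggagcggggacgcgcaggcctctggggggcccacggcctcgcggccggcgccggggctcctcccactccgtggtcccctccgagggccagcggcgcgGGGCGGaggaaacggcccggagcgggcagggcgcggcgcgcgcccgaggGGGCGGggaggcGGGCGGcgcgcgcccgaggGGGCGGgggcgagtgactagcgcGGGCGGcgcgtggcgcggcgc

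The Elovl5 window held 2 CCAAT boxes and 1 E box and no GC box, and the Elovl2 window held 5 GC boxes and neither of the other motifs. Among all 32851 windows of this length, 33.8% held a CCAAT box, 32.7% a GC box and 6.02% an E box. The cyclic AMP response element TGACGTCA (in 1.55% of windows) and direct repeats of AGGTCA spaced by 1 base (0.0335%) or 4 bases (0.0152%) matched in none of the 4 windows. The RefSeq start used for Fads2 lies 243 bases inside the annotated gene, so most of that window is within the gene. Marked matches do not overlap each other in the printed windows. A match is a description of letters, not a binding site.

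The enzymes of the polyunsaturated route, Fads2, Elovl5, Fads1 and Elovl2, had log2 differences between -0.040 and 0.077, KO minus WT, within the spread between livers. The desaturase Scd2 averaged lower in KO livers, with a log2 difference of -0.40 that did not pass the test across all genes. Tested with limma on log2(CPM + 1), 0 of the 7 passed an adjusted p of 0.05, where 0.152% of all 9186 genes passed (14, with 10 higher, or 0.109%, and 4 lower in KO, or 0.0435%; 16 higher and 11 lower under median-of-ratios scaling; 11 and 8 under quantile normalization). At an unadjusted p under 0.05 there was 1 of 7, Scd2, where 9.8% of all genes lay (4.51% higher and 5.29% lower in KO). The median log2 difference, KO minus WT, was -0.0045 over the 7 and -0.010 over all genes tested. The signs of the differences of Elovl1 and Elovl5 under median-of-ratios scaling, and of Elovl1, Elovl2 and Fads1 under quantile normalization, were the opposite of those given here.

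**Figure D1:**
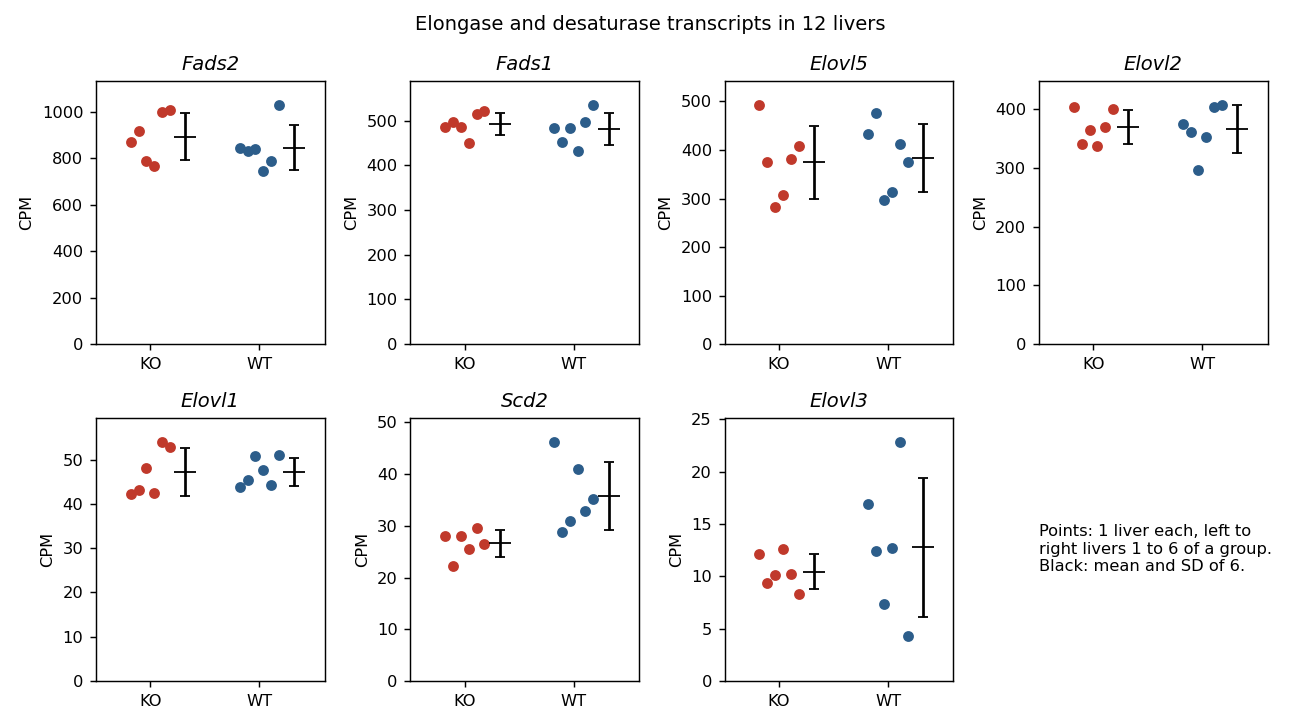
CPM (vertical axes, from 0) of the 7 genes in each KO and WT liver; a point is 1 liver, livers 1 to 6 run left to right within a group, and black marks are the mean and SD of 6. Fads2 reaches 1007 CPM in KO and 1028 CPM in WT livers, while 5 of 6 KO livers lie below every WT liver for Scd2 alone.

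Per length, the levels fell into 4 tiers. CPM per kilobase of annotated exon placed Fads2 first, at 271 ± 31.0 in KO and 257 ± 29.6 in WT livers. Next came Elovl5 (106 ± 21.3 in KO, 109 ± 19.9 in WT), Fads1 (102 ± 5.24 in KO, 99.9 ± 7.39 in WT) and Elovl2 (93.3 ± 7.12 in KO, 92.3 ± 10.2 in WT), whose ranges overlap. Elovl1 followed at 17.3 ± 1.97 in KO and 17.3 ± 1.17 in WT livers. Elovl3 (5.29 ± 0.838 in KO, 6.46 ± 3.37 in WT) and Scd2 (4.88 ± 0.473 in KO, 6.56 ± 1.21 in WT) came last and overlap. With the longest coding transcript as the length, Fads1 (142 ± 7.29 in KO, 139 ± 10.3 in WT) stood above Elovl5 (135 ± 27.0 in KO, 138 ± 25.2 in WT), and the ranges of Fads1 and Elovl2 no longer overlapped. The 7 genes summed to 2213 ± 198 CPM in KO and 2172 ± 177 CPM in WT livers. Fads2 made up 37.3% to 42.4% of that sum in KO and 35.8% to 42.2% in WT livers.

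Fads2 (ENSMUSG00000024665, chromosome 19, 10062765 to 10101746, minus strand, mm10) encodes the first desaturase of the route. KO livers 1 to 6 held 871, 918, 790, 767, 999.95 and 1007 CPM. WT livers 1 to 6 held 844, 831, 838, 743, 787 and 1028 CPM. The groups cover nearly the same range, and WT liver 6 stands well above the other WT livers. KO minus WT, the log2 difference was 0.077 (SE 0.090, 95% interval -0.12 to 0.27, limma adjusted p = 0.863).

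Fads1 (ENSMUSG00000010663, chromosome 19, 10182888 to 10196877, plus strand) acts after ELOVL5, and its start lies 81.1 kb from that of Fads2, the genes pointing away from each other. It was at 487, 497, 485, 451, 515 and 521 CPM in KO livers 1 to 6. In WT livers 1 to 6 it was at 483, 452, 484, 433, 497 and 535 CPM. The groups overlap almost fully, and Fads1 had the narrowest spread of the 7: only 19.95% of all genes tested had a smaller SD within groups. The log2 difference was 0.037 (SE 0.060, 95% interval -0.091 to 0.17, adjusted p = 0.906). The ratio of Fads2 to Fads1 within a liver, which does not depend on library scaling, was 1.63 to 1.94 in KO and 1.58 to 1.92 in WT livers (log2 difference 0.040, SE 0.057, exact two-sided permutation p = 0.485, adjusted over 3 ratios 0.656).

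Elovl5 (ENSMUSG00000032349, chromosome 9, 77917364 to 77984519, plus strand), the elongase of the middle step, varied widely between mice of either genotype. KO livers 1 to 6 held 493, 376, 282, 308, 381 and 408 CPM. WT livers 1 to 6 held 434, 476, 296, 313, 413 and 374 CPM. Both groups span much the same range, with KO liver 1 highest and KO liver 3 lowest of all 12. Counting error was at most 0.801%, and 91.6% of all genes tested varied less within groups. The log2 difference was -0.040 (SE 0.14, 95% interval -0.35 to 0.27, adjusted p = 0.965).

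Elovl2 (ENSMUSG00000021364, chromosome 13, 41182381 to 41220405, minus strand), which makes the precursors of DHA, was at 404, 341, 366, 338, 370 and 401 CPM in KO livers 1 to 6. WT livers 1 to 6 held 374, 361, 297, 352, 405 and 407 CPM. Every KO liver lies within the WT range, and WT liver 3 is the lowest of all. For Elovl2 the log2 difference was 0.019 (SE 0.079, 95% interval -0.15 to 0.19, adjusted p = 0.969). The ratio of Elovl2 to Elovl5 was 0.820 to 1.30 in KO and 0.760 to 1.12 in WT livers (log2 difference 0.059, SE 0.13, exact permutation p = 0.656, which is also the value adjusted over 3 ratios).

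Elovl1 (ENSMUSG00000006390, chromosome 4, 118428093 to 118432953, plus strand) makes the saturated and monounsaturated very long chains of sphingolipids. It was at 42.3, 43.1, 48.1, 42.5, 54.1 and 52.9 CPM in KO livers 1 to 6, against 43.7, 45.4, 50.7, 47.7, 44.3 and 51.0 CPM in WT livers 1 to 6. KO livers lie at both ends, 3 below and 2 above every WT liver, and the means coincide at 47.1 CPM. The log2 difference was -0.0045 (SE 0.074, 95% interval -0.16 to 0.15, adjusted p = 0.990). Cdc20 overlaps Elovl1 on the opposite strand, and the sources used here do not say whether counting used the strand.

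Elovl3 (ENSMUSG00000038754, chromosome 19, 46131897 to 46135694, plus strand) lengthens saturated and monounsaturated chains, is best known from brown fat and skin, and in mouse liver is higher in males and cycles with time of day. KO livers 1 to 6 held 12.1, 9.33, 10.1, 12.6, 10.2 and 8.31 CPM. WT livers 1 to 6 held 16.9, 12.4, 7.32, 12.7, 22.9 and 4.27 CPM. All KO livers lie within the WT range, which spans 5.36-fold between lowest and highest against 1.52-fold in KO. Counting error was at most 5.88%, and 99.1% of all genes tested varied less within groups. For Elovl3 the log2 difference was -0.11 (SE 0.29, 95% interval -0.73 to 0.50, adjusted p = 0.945), and without WT liver 5 it was 0.076. Whether the spreads of the groups differ was not tested. Pitx3 overlaps Elovl3 on the opposite strand.

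The state of the clock, which Elovl3 is known to follow in mouse liver, differed among these livers. The clock output gene Dbp lay between 33.8 and 103 CPM in KO livers and between 5.61 and 72.3 CPM in WT livers. Arntl, the clock activator also named BMAL1, lay between 5.16 and 14.0 CPM in KO and between 8.24 and 24.8 CPM in WT livers. Of 12 clock genes 9 were tested, 0 passed limma's adjusted p and 5 had an unadjusted p under 0.05, 4 higher and 1 lower in KO. Over all genes tested 0.152% passed, and 9.8% had an unadjusted p under 0.05 (4.51% higher and 5.29% lower in KO). The 12 genes summed to 459 to 637 CPM in KO and 336 to 598 CPM in WT livers. That sum mixes genes of opposite sign, such as Arntl (log2 difference -0.73) and Dbp (1.39), and does not measure the state of the clock. The labels give no hour of death, and the part of the clock in the Elovl3 values was not tested. Male-biased liver genes, another class Elovl3 belongs to, summed to 4130 to 5682 CPM in KO and 3794 to 5739 CPM in WT livers, and female-biased ones to 12.8 to 47.3 CPM in KO and 4.73 to 38.4 CPM in WT livers.

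**Figure D2:**
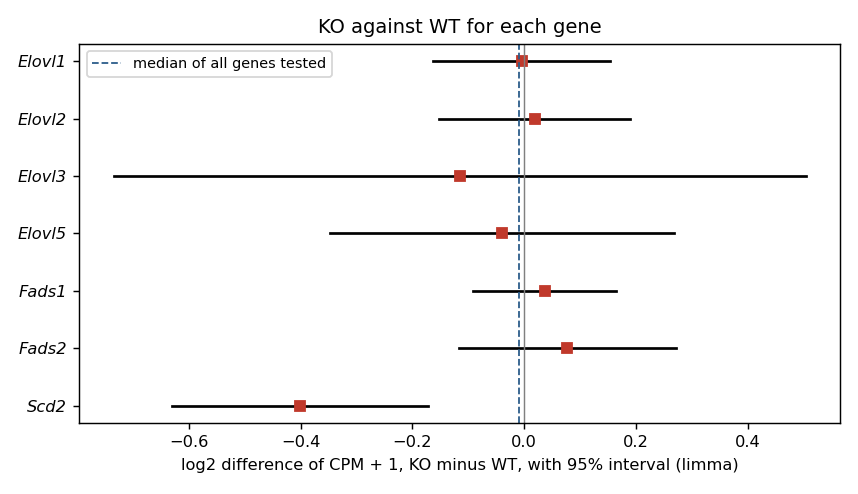
Log2 difference of CPM + 1, KO minus WT (horizontal axis), for the 7 genes, with 95% intervals from limma and the median of all genes tested as a dashed line. The interval of Scd2 runs from -0.63 to -0.17, and those of the other 6 genes include 0.

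Scd2 (ENSMUSG00000025203, chromosome 19, 44293674 to 44306864, plus strand) is the delta-9 desaturase of brain and of many cells outside the adult hepatocyte, in which Scd1 is the main form. KO livers 1 to 6 held 28.1, 22.2, 28.1, 25.5, 29.5 and 26.5 CPM. WT livers 1 to 6 held 46.3, 28.9, 30.9, 40.9, 32.8 and 35.2 CPM. In KO 5 of 6 livers were below every WT liver, as was the case for 1.58% of all genes tested, and only KO liver 5 and WT liver 2 overlap. The mean was 26.7 ± 2.58 CPM in KO and 35.8 ± 6.59 CPM in WT livers. The log2 difference was -0.40 (SE 0.11, 95% interval -0.63 to -0.17, unadjusted p = 0.00223, limma adjusted p = 0.170), so the difference did not pass over all genes. It was -0.44 without KO livers 1 and 3, and it lay between -0.46 and -0.33 when any 1 liver was left out.

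Scd1 catalyses the same reaction as Scd2. It was at 350, 784, 170, 334, 347 and 278 CPM in KO livers 1 to 6 and at 257, 256, 394, 313, 578 and 362 CPM in WT livers 1 to 6. The groups overlap widely (log2 difference -0.027, SE 0.30, adjusted p = 0.986). The ratio of Scd2 to Scd1 was 0.0296 to 0.169 in KO and 0.0584 to 0.184 in WT livers (log2 difference -0.37, SE 0.41, exact permutation p = 0.400, adjusted over 3 ratios 0.656). The longest coding Scd2 transcript matched Scd1 transcripts at 86.8% over 1261 bases, and at 95.5% in a shorter alignment of 623 bases. How the authors' counting divided reads between the genes is not given, which makes the Scd2 level uncertain. No other gene matched any of the 7 at 95% or more over at least 100 bases.

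Bulk RNA cannot tell fewer cells of a type from less RNA per cell, and the marker sums of cholangiocytes, macrophages and stellate cells were also on the lower side in KO livers. The 4 cholangiocyte markers summed to 19.9 to 37.6 CPM in KO and 41.1 to 93.0 CPM in WT livers, without overlap, a separation that 0.893% of single genes tested showed in either direction. Most of that sum was Sox9, the only 1 of the 4 tested (20.3 ± 5.35 CPM in KO, 34.2 ± 9.55 CPM in WT, limma adjusted p = 0.158). Krt19, Krt7 and Epcam, below the minimum mean of 10 CPM, were also lower in KO. In the limma fit with a minimum mean of 1 CPM, Krt7 had an adjusted p of 0.0495 (1.23 ± 0.538 CPM in KO, 3.61 ± 1.30 CPM in WT). The 6 macrophage markers summed to 976 to 1443 CPM in KO and 1342 to 2210 CPM in WT livers. Most of that sum was Lyz2 (536 ± 81.5 CPM in KO, 810 ± 162 CPM in WT) and Gpnmb (446 ± 73.5 CPM in KO, 625 ± 137 CPM in WT), while Clec4f, the marker of resident Kupffer cells, was at 123 ± 29.0 CPM in KO and 81.9 ± 21.8 CPM in WT livers (log2 difference 0.59, limma unadjusted p = 0.0103, adjusted p = 0.279). The 6 stellate cell markers summed to 676 to 885 CPM in KO and 763 to 1042 CPM in WT livers. Its members also differed in sign: Col1a1 had a log2 difference of -0.49 and Pdgfrb of -0.44, but Lrat, the vitamin A storage enzyme of quiescent stellate cells, was at 52.2 ± 6.995 CPM in KO and 38.3 ± 6.34 CPM in WT livers (0.44, limma unadjusted p = 0.00162, adjusted p = 0.158). Summed hepatocyte markers overlapped, at 54905 to 68472 CPM in KO and 53656 to 73428 CPM in WT livers. The 4 sinusoidal endothelium markers summed to 184 to 268 CPM in KO and 179 to 229 CPM in WT livers. In these 5 cell types every marker had a row and none was under 1 CPM in every liver. Lymphocyte markers summed to 5.47 to 7.48 CPM in KO and 3.54 to 8.08 CPM in WT livers, and neutrophil markers to 4.23 to 21.8 CPM in KO and 2.86 to 18.02 CPM in WT livers. The myelin gene Mbp was at 8.22 ± 1.44 CPM in KO and 11.1 ± 2.75 CPM in WT livers (log2 difference -0.38, limma unadjusted p = 0.0176, adjusted p = 0.278). Adipocyte and muscle markers were not analysed here.

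**Figure D3:**
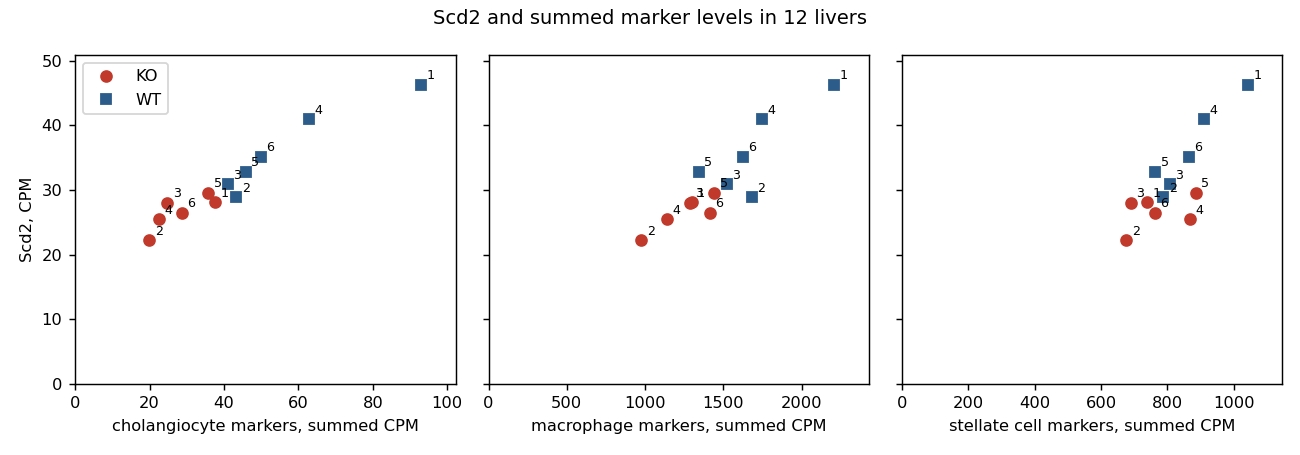
Scd2 CPM (vertical axis) against the summed CPM of cholangiocyte, macrophage and stellate cell markers (horizontal axes, all from 0) in each KO and WT liver, numbered within its group. WT liver 1 has the highest Scd2, 46.3 CPM, and KO liver 2 the lowest, 22.2 CPM, and they are also highest and lowest for all 3 marker sums.

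Scd2 also varied with these marker sums from liver to liver. After subtracting each group's mean, Scd2 correlated with the cholangiocyte sum over 12 livers (Pearson r = 0.901, Spearman rho = 0.923, permutation p adjusted over 5 cell types 0.0005 and 0.00025), and r was 0.871 without the 2 livers farthest from the median, 0.819 among KO and 0.957 among WT livers. For macrophages r was 0.775 and rho 0.832 (adjusted permutation p = 0.0137 and 0.0055), with r of 0.533 without the 2 farthest livers, 0.895 among KO and 0.742 among WT livers. For stellate cells r was 0.725 and rho 0.699 (adjusted permutation p = 0.0154 and 0.0273), with r of 0.479 without the 2 farthest, 0.430 among KO and 0.931 among WT livers. For hepatocytes r was -0.461 and rho -0.510 (adjusted permutation p = 0.226 and 0.135), and for sinusoidal endothelium r was -0.035 and rho -0.049 (adjusted permutation p = 0.904 and 0.881). The 2 farthest livers were picked by the marker sum alone, not by Scd2. These 5 relations were chosen after the values were seen. The part of cell composition in the Scd2 difference was not tested.

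Liver to liver, Fads1 and Fads2 varied together whatever the genotype. Over 12 livers with group means subtracted, their r was 0.844 and rho 0.853 (permutation p adjusted over 21 pairs 0.0178 and 0.0403). Without WT livers 4 and 6, the 2 farthest from the median of Fads1, r was 0.723. The relation was present in each genotype, with r of 0.925 in KO and 0.812 in WT livers. Elovl1 and Elovl3 went in opposite directions (r = -0.593, adjusted permutation p = 0.0312), but by rank the relation did not pass (rho = -0.636, adjusted permutation p = 0.121). Without KO livers 5 and 6, the 2 farthest from the median of Elovl1, r was -0.720. WT livers 5 and 6, the farthest for Elovl3, were kept in that value. Elovl2 and Elovl5 had r of 0.620 and rho of 0.573, which did not pass (adjusted permutation p = 0.197 and 0.288). Of the other 18 pairs none passed, and Scd2 had r between -0.036 and 0.318 with each of the other 6 genes.

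**Figure D4:**
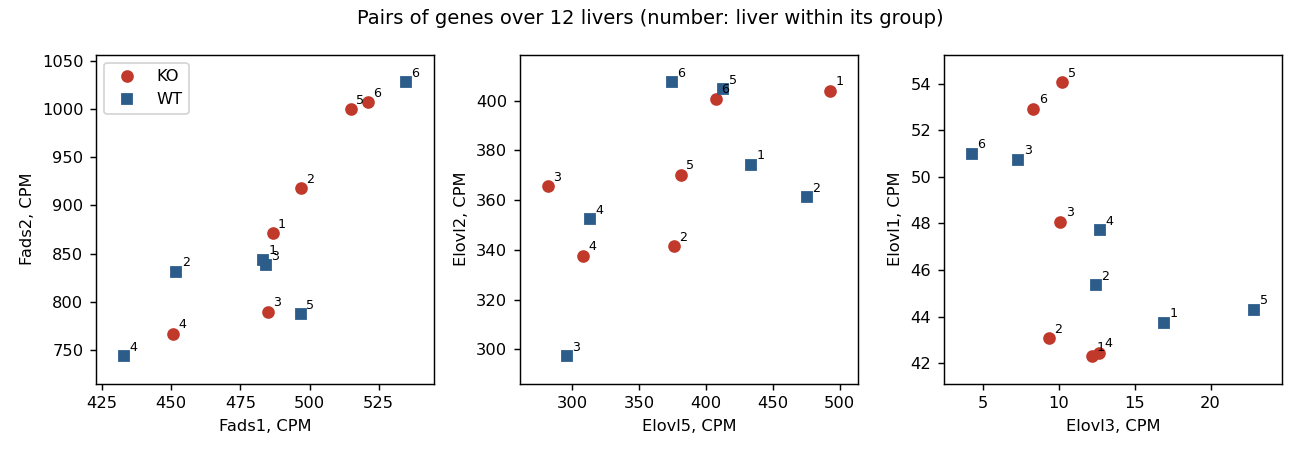
CPM of Fads2 against Fads1, Elovl2 against Elovl5 and Elovl1 against Elovl3 in the 12 livers, numbered within KO and WT; axes do not start at 0. KO livers 5 and 6 and WT liver 6 are highest for both Fads genes, and WT liver 4 is lowest for both.

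The genes most like each member were the 3 with the highest r over the 12 livers after subtracting group means, out of all genes tested, so these values were chosen for their size and carry no p. For Elovl5 they were Abcd3 (r = 0.884), a peroxisomal fatty acid transporter, Hsd17b12 (r = 0.874), the 3-ketoacyl-CoA reductase of the elongation cycle, and Jcad (r = 0.863). For Scd2 they were the laminin chain Lamb2 (r = 0.934), lipoprotein lipase Lpl (r = 0.933) and the growth factor receptor Igf1r (r = 0.933). Lpl was at 251 ± 30.0 CPM in KO and 330 ± 65.2 CPM in WT livers, with a limma adjusted p of 0.272. For Fads1 they were Fads2 itself, the sphingosine phosphate receptor S1pr1 (r = 0.832) and Kbtbd4 (r = 0.811), and for Fads2 they were Clp1 (r = 0.886), the chaperone Dnaja1 (r = 0.881) and Commd9 (r = 0.880). Elovl2 was closest to the anticoagulant Pros1 (r = 0.916), Mmgt1 (r = 0.869) and Emc3 (r = 0.867). Elovl1 was closest to Slc35c1 (r = 0.961), Prkab1 (r = 0.957) and Gapdh (r = 0.938), and Elovl3 to Dlg3 (r = 0.893), Itm2b (r = 0.893) and Rnf125 (r = 0.886).

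In the rest of the pathway no gene passed either. Of 65 genes tested in 7 lists, limma called 0 over all genes (0.152% of all genes were called). There were 9 at an unadjusted p under 0.05, or 13.8% against 9.8% of all genes, 8 of them higher and 1 lower in KO. Below the minimum mean of 10 CPM stood 11 more pathway genes, which a fit of all genes with no minimum includes. It called 0 of the 11, and 4 had an unadjusted p under 0.05, all lower in KO, where 10.7% of all genes below the minimum were lower and 1.93% higher by that p. With them the split was 8 higher and 5 lower in KO among 76 genes. The 5 tested genes of the elongation cycle had a median log2 difference of 0.041 and 0 at an unadjusted p under 0.05. The dehydratase Hacd4 was at 13.6 ± 1.68 CPM in KO and 16.1 ± 3.40 CPM in WT livers (adjusted p = 0.630), the enoyl reductase Tecr at 55.6 ± 3.96 CPM in KO and 52.6 ± 5.96 CPM in WT (0.800), Hsd17b12 at 101 ± 6.39 CPM in KO and 96.7 ± 5.31 CPM in WT (0.821), and the dehydratase Hacd3 at 153 ± 15.0 CPM in KO and 148 ± 12.6 CPM in WT (0.917).

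Other elongases and desaturases gave 0 of 5 at an unadjusted p under 0.05, with a median of -0.018. Below the minimum mean, in the fit with no minimum, the elongase Elovl7 was at 4.80 ± 1.38 CPM in KO and 6.77 ± 1.95 CPM in WT livers (log2 difference -0.42, limma unadjusted p = 0.0388, adjusted p = 0.396). The sphingolipid desaturase and hydroxylase Degs2 was at 0.777 ± 0.199 CPM in KO and 1.35 ± 0.451 CPM in WT livers (log2 difference -0.39, limma unadjusted p = 0.00621, adjusted p = 0.173). Both differences are negative, as were those of all 11 pathway genes below the minimum mean and of 69.4% of all 10957 genes below it. Both genes were named after their values were seen. Elovl6, which lengthens palmitic acid, was at 55.2 ± 13.0 CPM in KO and 52.8 ± 6.98 CPM in WT livers (adjusted p = 0.964). The desaturase relatives Fads3 (28.6 ± 4.83 CPM in KO, 33.0 ± 9.45 CPM in WT, adjusted p = 0.847) and Fads6 (185 ± 14.4 CPM in KO, 178 ± 20.9 CPM in WT, adjusted p = 0.884) and the dihydroceramide desaturase Degs1 (78.5 ± 4.53 CPM in KO, 79.6 ± 5.85 CPM in WT, adjusted p = 0.961) did not pass either. Of the electron donors, 1 of 6 had an unadjusted p under 0.05, the P450 reductase Por at 151 ± 21.3 CPM in KO and 128 ± 18.8 CPM in WT livers (log2 difference 0.23, adjusted p = 0.508). Cytochrome b5 itself, Cyb5a, was at 419 ± 35.1 CPM in KO and 391 ± 13.4 CPM in WT livers (adjusted p = 0.655), followed by the mitochondrial form Cyb5b (adjusted p = 0.706) and the reductase Cyb5r1 (0.769).

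Peroxisomes shorten the ELOVL2 products to DHA. Of 12 genes of that step 10 had positive differences (median 0.045) and 2 had an unadjusted p under 0.05. Differences were positive for 45.6% of all genes tested, with a median of -0.010. Among genes averaging 100 CPM or more the median was 0.030. The oxidase Acox2 was at 167 ± 8.42 CPM in KO and 153 ± 12.0 CPM in WT livers (adjusted p = 0.507). The thiolase Acaa1a was at 184 ± 16.9 CPM in KO and 165 ± 12.7 CPM in WT livers (adjusted p = 0.509). The thiolase and carrier Scp2 had an adjusted p of 0.565. Acyl-CoA synthetases had 1 of 10, the medium-chain enzyme Acsm1, at 185 ± 18.3 CPM in KO and 162 ± 18.1 CPM in WT livers (adjusted p = 0.452), ahead of Acsm5 (0.567), Acsm3 (0.646) and Slc27a5 (0.803). Enzymes that use long and polyunsaturated acyl chains had 0 of 9 (median 0.019). The ceramide synthase Cers2 came first (limma adjusted p = 0.822), then Mboat7 (0.833), Pla2g6 (0.885) and Lpcat2 (0.906). The other 2 pathway genes below the minimum mean with an unadjusted p under 0.05 are acyltransferases, Lpcat1 (log2 difference -0.20, adjusted p = 0.366) and Mboat2 (-0.30, adjusted p = 0.255), also named after their values were seen.

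Regulators had 5 of 18 at an unadjusted p under 0.05, 4 higher and 1 lower in KO, with a median of 0.072. Of all genes tested 9.8% lay under that p, 4.51% higher and 5.29% lower in KO. Arntl and Nr1d2 are counted here and among the clock genes above. Arntl, the lower one, was at 9.48 ± 3.16 CPM in KO and 16.7 ± 6.03 CPM in WT livers (log2 difference -0.73, adjusted p = 0.286), and the clock repressor Nr1d2 was at 107 ± 13.7 CPM in KO and 85.5 ± 19.3 CPM in WT (0.34, adjusted p = 0.403). The lipogenic and fat-storage factor Pparg was at 22.3 ± 1.17 CPM in KO and 20.1 ± 1.08 CPM in WT livers (0.14, adjusted p = 0.328). Thrsp, a lipogenic protein, was at 30.9 ± 15.8 CPM in KO and 15.3 ± 9.39 CPM in WT livers (0.96, adjusted p = 0.483). Srebf1, which encodes the sterol-regulated activator of desaturase and elongase genes, was at 162 ± 25.8 CPM in KO and 160 ± 41.2 CPM in WT livers (adjusted p = 0.968), and was named after its values were seen. So was Ppara, the fatty acid sensor, at 142 ± 14.2 CPM in KO and 125 ± 14.9 CPM in WT livers (0.19, adjusted p = 0.501).

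**Figure D5:**
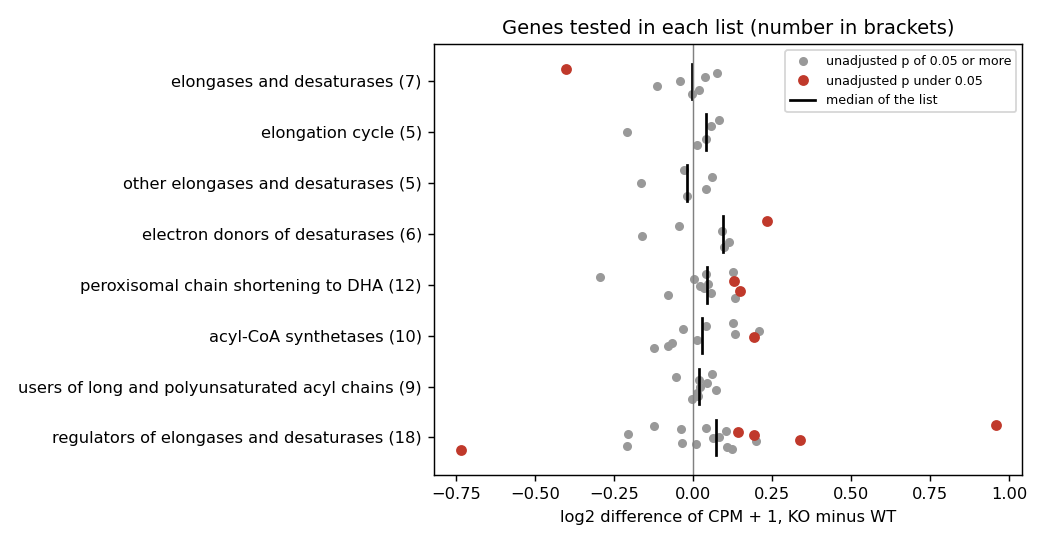
Log2 difference of CPM + 1, KO minus WT (horizontal axis), of each gene tested in the 7 elongases and desaturases and in 7 pathway lists; red points have an unadjusted p under 0.05 and black bars are list medians. Scd2 is the only red point in the top row, at -0.40, and no gene shown passed an adjusted p of 0.05.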

How the data were processed

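The authors deposited 1 table of CPM (each column sums to 1000000) for 12 livers. The submitters' processing notes name mm10, Partek 10.0, STAR 2.7.3a and DESeq2 1.14.1 without roles; the sources used here give no counter, annotation, filters or strand use. Of values under 1 CPM, 70.7% to 75.0% per library were whole multiples of 1 step within 0.02 steps (4% if evenly spread), which gave each depth; the rest were fractional, so no count test was run. Counting errors cover counting only.

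Values of all genes became log2(CPM + 1). Genes averaging 10 CPM or more over the 12 livers entered limma 3.58.1 in R 4.3.3 (mean trend, Benjamini-Hochberg over all genes, threshold 0.05, no covariates). Ratios used exact permutation over 924 assignments of livers, and correlations 100000 permutations within groups. In simulated KO against WT data of 9186 genes, 82% of genes changed 1.5-fold were recovered, with 4 false calls among 182 calls. The changes made were 1.5-fold to 4-fold, and the measured data gave 14 calls. Recovery of changes under 1.5-fold, such as the log2 difference of -0.40 of Scd2, was not tested, nor was recovery at the spread of Elovl3 alone. Symbols, lengths and positions came from GENCODE (mm10; 20055 IDs matched), copies from BLASTN 2.17.0 and windows from RefSeq. Members and lists were chosen with earlier results of these data known. Named genes were Hsd17b13, the 7 members, the partners in the ratios, up to 4 genes per list by smallest p, called list genes and the 3 most like each member.

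The alternatives were other pseudocounts, scalings, minimum means, variance settings, a replicate block and left-out livers. A few list genes, the sum of 1 marker list and 1 motif are not reported here.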

Additional observations from a re-analysis of the deposited data

Results flagged for a closer look

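Fads2 in WT livers had 1 value far from the rest. WT liver 6 was at 1028 CPM and the next highest WT liver at 844 CPM, a gap that makes up 64.8% of the range of the 6 WT livers. By chance about 1 group in 20 shows such a gap, and 20 groups of 6 values were examined (7 genes and 3 ratios in KO and WT). KO livers 5 and 6 reached 999.95 and 1007 CPM, close to that value. Without WT liver 6 the log2 difference of Fads2, KO minus WT, was 0.14, with a limma adjusted p of 0.669.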

How the results depend on the processing

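The number of genes called over all genes, 14, was 27 with median-of-ratios scaling, 31 with a minimum mean of 1 CPM, 29 with no minimum, 4 with a minimum of 100 CPM, 35 with library weights and 90 without KO livers 1 and 3; with 1 liver left out it was 9 (without WT liver 3) to 25 (without KO liver 3). No member passed limma's adjusted p under any of these. Log2 differences near 0 changed sign: Elovl1 was 0.041 with median-of-ratios scaling, 0.0016 with quantile normalization and 0.023 without KO livers 1 and 3; Elovl5 was 0.0068 with median-of-ratios scaling; Elovl2 was -0.030 with quantile normalization, -0.021 with library weights and -0.010 without KO livers 1 and 3; Fads1 was -0.012 with quantile normalization. The cause was not tested. With 1 liver left out the ranges were -0.045 to 0.025 for Elovl1, -0.039 to 0.051 for Elovl2, -0.36 (without WT liver 6) to 0.076 (without WT liver 5) for Elovl3, -0.12 to 0.037 for Elovl5, 0.0075 to 0.068 for Fads1, 0.041 to 0.14 for Fads2, -0.46 to -0.33 for Scd2, -0.015 to 0.12 for the Elovl2 to Elovl5 ratio, 0.011 to 0.070 for Fads2 to Fads1 and -0.59 to -0.083 for Scd2 to Scd1. Scd2 at -0.40 had an exact permutation p of 0.00433, unadjusted, and its limma adjusted p was 0.104 to 0.391 over the alternatives. Deviations of same-numbered livers had correlations of -0.514 to 0.388, over 0.1 in 4 of 6 pairs. Of the KO livers 0 of 6 were closest to their own number, so the numbers were not taken to pair the livers. With the replicate block 11 genes were called and no member's call changed, but the SE of every member was smaller. It was 0.072 against 0.14 for Elovl5, 0.064 against 0.074 for Elovl1, 0.065 against 0.079 for Elovl2 and 0.22 against 0.29 for Elovl3. For Fads1 it was 0.047 against 0.060, for Fads2 0.065 against 0.090 and for Scd2 0.087 against 0.11. The cause of the smaller SE was not tested. DESeq2 was not run, since the values are not counts, and a minimum of 100 CPM gives no value for Elovl1, Elovl3 and Scd2. Of the 7 genes Elovl3, near 10 CPM, carries the largest counting error, up to 5.88%. Lower values carry more, such as 13.7% for Hsd17b13 in KO liver 5, at 0.956 CPM.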
